A study of Saccharomyces cerevisiae with 12 samples.

Results

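The protein disulfide isomerases and thiol oxidases of the yeast endoplasmic reticulum (ER) were followed through the unfolded protein response (UPR). The 7 genes, *PDI1*, *EUG1*, *MPD1*, *MPD2*, *EPS1*, *ERO1*, and *ERV2*, were taken by symbol from the probe annotation. Each matched 1 element of the 6024 on the array, so none was missing and none was measured more than once. Cells of *Saccharomyces cerevisiae* that were wild type (WT) or carried a deletion of *IRE1*, *GCN4*, or *GCN2* were grown in rich medium (YPD) to midlog phase and exposed to dithiothreitol (DTT) for 30 min, or left untreated. Each of the 4 strains was measured on 3 two-color arrays spotted with open reading frames, 12 arrays in all, and each array set treated against untreated cells of that strain. The methods describe 3 independent experiments, and the labels do not say whether a deletion strain was represented by more than 1 isolate.

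Secretory proteins acquire their disulfide bonds in the ER by a relay of electrons. Ero1p, a flavoprotein, passes electrons from protein thiols to molecular oxygen and thereby keeps Pdi1p oxidized, and Pdi1p and its relatives transfer disulfides to folding proteins and reshuffle wrong ones. DTT reduces disulfides directly and so works against this relay. In budding yeast, the UPR runs from the ER sensor Ire1p to the transcription factor Hac1p. Gcn4p is a transcription factor best known from amino acid starvation, when the kinase Gcn2p raises its translation.

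The value of a gene is its log2 ratio of treated over untreated cells, and it is a change, not a level of mRNA. Since every ratio was formed within a strain, a deletion that alters the levels before and after treatment alike does not show in it. One that alters the level before treatment alone changes the ratio, which cannot be told apart from a changed response to DTT. Levels cannot be compared between genes or strains. Because the ratios were formed within a strain, the labelled deletions could also not be checked by the ratios of the deleted genes. A call, higher or lower, required an adjusted p under 0.05 in a linear model (limma) fitted to all 12 arrays and all 6024 elements, with adjustment by the method of Benjamini and Hochberg. The median log2 ratio of an array ranged from −0.205 to −0.056, and the correlation between arrays of a strain over all elements ranged from 0.642 in Δ*ire1* to 0.943 in Δ*gcn2*. The arrays were used as deposited. Centering each on its median would raise all its values by the size of that median, and with it the share of calls that were higher went from 32.0% to 49.3% for WT, from 25.5% to 48.6% for Δ*ire1*, from 29.0% to 49.2% for Δ*gcn4*, and from 40.0% to 50.7% for Δ*gcn2*. In the differences between strains, centering moved this share from 63.6% to 53.5% for Δ*gcn2* against WT and from 29.7% to 46.5% for Δ*gcn4* against Δ*gcn2*.

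One gene of the group, *ERO1*, supplied the promoter fragment from which the study made its probe for UPRE-2, a UPR element read by Hac1p and Gcn4p. The fragments are shown because *ERO1* is the member with a UPR element printed in the study's supplement. The core of the element, TACGTG, is in capitals in the first and second sequence, and the capital in the third marks the base changed in the mutant probe.
*ERO1* promoter, UPRE-2 core in its context: atacggagTACGTGtcataaaa
UPRE-2 probe, wild type: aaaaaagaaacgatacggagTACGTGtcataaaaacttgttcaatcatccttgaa
UPRE-2 probe, mutant: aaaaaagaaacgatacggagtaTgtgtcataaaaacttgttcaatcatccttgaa
The core starts at base 9 of the 22 bases of the context and at base 21 of the 55 bases of the probe. The mutant differs by C23T, counted from 1 at the 5′ end of the probe. The older element, UPRE-1, has the core CAGNGTG, and its letters are on neither strand of these fragments, which says nothing of the rest of the promoter. *ERO1* lies on chromosome XIII. Promoters of the other 6 genes were not analysed here.

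In WT, 4 of the 7 genes rose and none fell, against 18.4% of all elements called higher and 39.0% called lower. The median of the 7 log2 ratios was 1.23, and that of all elements was −0.15. *ERO1*, *MPD1*, and *EUG1* stood next to each other near the top of the array, at ranks 17, 18, and 19 of 6024, and *PDI1* was at rank 84. The other three, *MPD2*, *EPS1*, and *ERV2*, ranked 1796, 1851, and 2187. So 2 oxidases and 5 isomerases were each divided between genes that rose 2-fold or more and genes near no change.

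**Figure D1:**
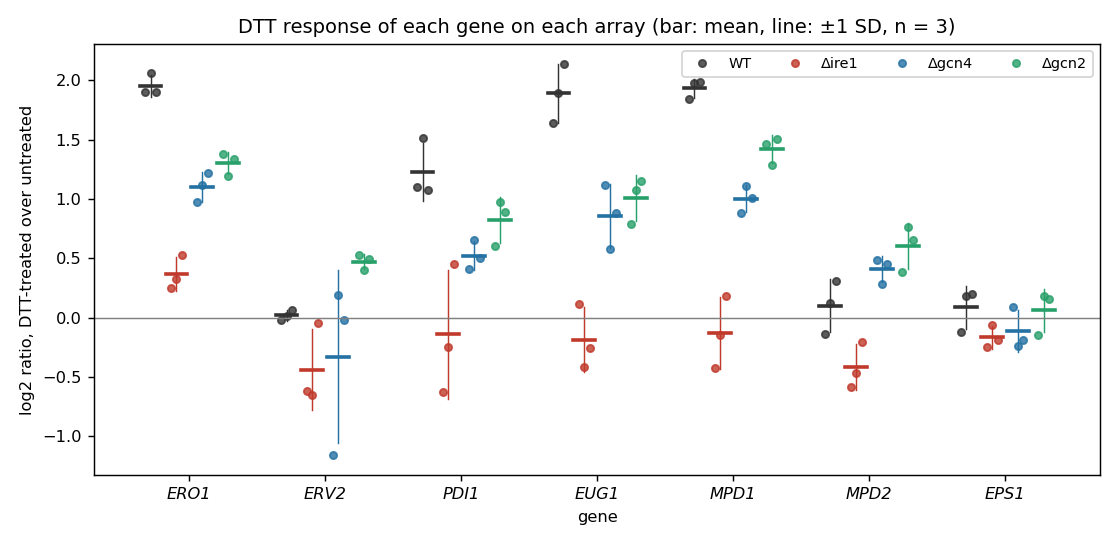
The log2 ratio (DTT over no DTT) is plotted for each of the 7 genes on each of the 12 arrays, with the mean (bar) and SD (line) of the 3 arrays of a strain. *ERO1*, *PDI1*, *EUG1*, and *MPD1* are highest on the WT arrays, and *ERO1*, *EUG1*, and *MPD1* are lowest on the Δ*ire1* arrays, where 1 array of *PDI1* (0.45) overlaps Δ*gcn4*, whereas *ERV2*, *MPD2*, and *EPS1* lie near 0 in WT.

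*ERO1* encodes the main oxidase of the ER, which is essential for growth. Its log2 ratio was 1.90, 2.06, and 1.90 on the WT arrays, a mean of 1.96 ± 0.094 (SD, n = 3), or 3.88-fold, with an adjusted p of 1.1e-09 by limma. In Δ*ire1* it was 0.25, 0.33, and 0.53, a mean of 0.37 ± 0.14 (SD, n = 3), or 1.29-fold. All 3 Δ*ire1* arrays lay above 0 and far below every WT array. *ERO1* was the single member called higher in Δ*ire1* (adjusted p = 0.00398 by limma), at rank 581, and this call was lost when the change was tested against a fold of 1.2 (adjusted p = 0.392). The Δ*gcn4* arrays had 0.97, 1.12, and 1.22. The Δ*gcn2* arrays had 1.38, 1.2, and 1.34. The strains Δ*gcn4* and Δ*gcn2* overlapped each other, and neither overlapped WT or Δ*ire1*. On the log2 scale, the mean of *ERO1* relative to the WT mean was 18.8% for Δ*ire1* (single arrays 12.8% to 26.8%), 56.3% for Δ*gcn4* (49.7% to 62.3%), and 66.7% for Δ*gcn2* (61.2% to 70.5%). Compared with WT, the response was smaller by a log2 difference of −1.59 for Δ*ire1* (adjusted p = 2.1e-06), −0.85 for Δ*gcn4* (adjusted p = 0.00136), and −0.65 for Δ*gcn2* (adjusted p = 0.00486), all by limma.

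*ERV2* encodes the second flavin-linked sulfhydryl oxidase of the ER lumen, a smaller enzyme that also hands disulfides to Pdi1p. It did not share the response of *ERO1*. Its log2 ratios in WT were −0.021, 0.013, and 0.065, a mean of 0.019 ± 0.043 (SD, n = 3). These 3 values span less than those of any other member in WT. In Δ*gcn2* the values were 0.53, 0.40, and 0.50, a mean of 0.47 ± 0.067 (SD, n = 3), all above WT, and *ERV2* was called higher there (adjusted p = 0.0357 by limma). That call was lost without any 1 of the Δ*gcn2* arrays (adjusted p = 0.0825 to 0.124) and in the test against a fold of 1.2 (adjusted p = 0.277). It was kept with array weights (adjusted p = 0.00135) and with Δ*gcn2* fitted alone (adjusted p = 0.000123), where the wider spread of *ERV2* in other strains does not enter. In Δ*ire1* the values were −0.62, −0.65, and −0.042, with a mean of −0.44 ± 0.34 (SD, n = 3; adjusted p = 0.063 by limma). *ERV2* was called lower there with array weights (adjusted p = 0.0055), with the replicate number as a block (adjusted p = 0.0429), with the strain fitted alone (adjusted p = 0.0445), and without Δ*ire1* array 3 (adjusted p = 0.0241), and not in the other settings, centering among them (adjusted p = 0.213). In Δ*gcn4* the values were −1.16, 0.19, and −0.020, and the first array alone set the mean of −0.33 ± 0.73 (SD, n = 3) below 0. Without it the mean of *ERV2* in Δ*gcn4* was 0.087.

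*PDI1* encodes the founding isomerase of the family, an abundant and essential enzyme that Ero1p oxidizes. Its log2 ratios in WT were 1.10, 1.51, and 1.08, a mean of 1.23 ± 0.24 (SD, n = 3), or 2.35-fold (adjusted p = 6.91e-06 by limma). In Δ*ire1* they were −0.63, −0.25, and 0.45, a mean of −0.14 ± 0.55 (SD, n = 3). The 3 Δ*ire1* arrays fell on both sides of 0, and all were below WT. The Δ*gcn4* arrays had 0.41, 0.66, and 0.50 and the Δ*gcn2* arrays 0.61, 0.97, and 0.89, all between 0 and the lowest WT array. *PDI1* rose in both strains (adjusted p = 0.00934 and 0.000251 by limma). In Δ*gcn4* the call was lost without array 2 (adjusted p = 0.0664) and in the test against a fold of 1.2 (adjusted p = 0.163). On the log2 scale, its mean relative to the WT mean was 42.5% for Δ*gcn4* and 66.8% for Δ*gcn2*.

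*EUG1* encodes a close relative of Pdi1p that is dispensable for growth and whose active sites lack the second cysteine of the pair found in Pdi1p. Its log2 ratios in WT were 1.64, 1.89, and 2.14, a mean of 1.89 ± 0.25 (SD, n = 3), or 3.71-fold (adjusted p = 1.78e-08 by limma). In Δ*ire1* they were 0.12, −0.41, and −0.26, a mean of −0.19 ± 0.27 (SD, n = 3). No Δ*ire1* array came near a WT array, and the mean was at rank 3290, just below the middle of all elements. The Δ*gcn4* arrays had 1.12, 0.58, and 0.89 and the Δ*gcn2* arrays 0.79, 1.08, and 1.15, which overlapped each other and stayed below WT. *EUG1* rose in both (adjusted p = 5.17e-05 and 6.55e-06 by limma), to 45.4% and 53.3% of the WT mean on the log2 scale. Genes with related sequences may share signal on spotted open reading frames, and the part of this in *PDI1* and *EUG1* was not tested.

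*MPD1* was found as a gene that in high copy suppresses the loss of *PDI1*, and it encodes a smaller member of the family. Its log2 ratios in WT were 1.84, 1.98, and 1.99, a mean of 1.94 ± 0.080 (SD, n = 3), or 3.82-fold (adjusted p = 4.63e-09 by limma). In Δ*ire1* they were −0.42, −0.14, and 0.18, a mean of −0.13 ± 0.30 (SD, n = 3), on both sides of 0 and far below WT. The Δ*gcn4* arrays had 0.88, 1.11, and 1.01 and the Δ*gcn2* arrays 1.47, 1.29, and 1.51. The 4 strains did not overlap at any point for *MPD1*, with WT highest, Δ*gcn2* next, then Δ*gcn4*, and Δ*ire1* lowest. The mean was 51.8% of the WT mean in Δ*gcn4* (single arrays 45.6% to 57.6%) and 73.5% in Δ*gcn2* (66.7% to 78.0%) on the log2 scale.

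*MPD2*, a second suppressor of the loss of *PDI1*, had another order of the strains. Its log2 ratios in WT were −0.14, 0.13, and 0.31, a mean of 0.10 ± 0.22 (SD, n = 3; adjusted p = 0.455 by limma). In Δ*ire1* they were −0.58, −0.46, and −0.21, a mean of −0.42 ± 0.19 (SD, n = 3), all below the lowest WT array. The Δ*gcn4* arrays had 0.49, 0.28, and 0.45, overlapping WT, and the Δ*gcn2* arrays 0.39, 0.77, and 0.65, all above it. *MPD2* rose in Δ*gcn4* (adjusted p = 0.00542 by limma) and in Δ*gcn2* (adjusted p = 0.000196). It fell in Δ*ire1* (adjusted p = 0.00563), a call that was lost when the arrays were centered (adjusted p = 0.0504) or without Δ*ire1* array 1 (adjusted p = 0.0639). *MPD2* was thus the one gene of the 7 called in opposite directions in different strains. In limma's test against a fold of 1.2, its calls in Δ*gcn4* (adjusted p = 0.271) and Δ*ire1* (adjusted p = 0.287) were lost. Its rise in Δ*gcn2* was kept there (adjusted p = 0.0123).

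*EPS1* encodes a membrane-bound member of the family that takes part in quality control of a plasma membrane protein at the ER. The WT arrays had log2 ratios of −0.12, 0.18, and 0.20 and the Δ*ire1* arrays −0.25, −0.062, and −0.19. The Δ*gcn4* arrays had 0.09, −0.24, and −0.18 and the Δ*gcn2* arrays −0.15, 0.18, and 0.15. Every strain overlapped every other, and *EPS1* passed the test in none of the 10 comparisons. The 95% intervals of its mean response in the 4 strains together ran from −0.39 to 0.31, so that a response of the size *PDI1* had in WT lay outside them.

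In the deletion strains, the counts of members stood as follows. In Δ*ire1*, 1 of 7 rose and 1 fell, with 12.2% of all elements called higher and 35.6% called lower, and the median of the 7 was −0.17 against −0.14 for all elements. In Δ*gcn4*, 5 rose and none fell (15.8% and 38.7% of all elements), and the medians were 0.52 and −0.16. In Δ*gcn2*, 6 rose and none fell (25.2% and 37.8% of all elements), and the medians were 0.82 and −0.11. Apart from Δ*ire1*, no strain had a member that was lower even at an unadjusted p under 0.05 in limma.

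**Figure D2:**
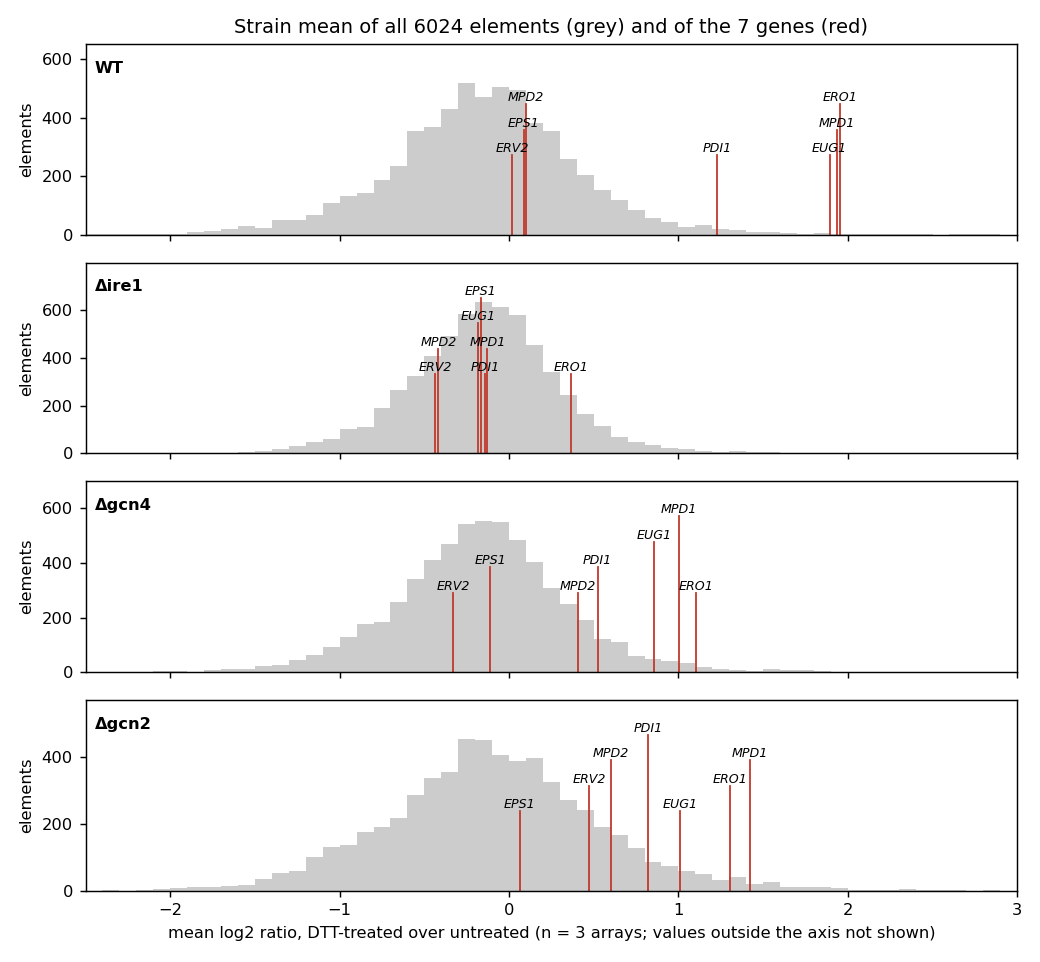
Each panel is a histogram of the mean log2 ratio (3 arrays) of all 6024 elements in 1 strain, with the mean of each of the 7 genes as a red line. In WT, *EUG1*, *MPD1*, and *ERO1* stand together in the far right tail and *PDI1* in its shoulder. In Δ*ire1* none of the 7 stands in the far right tail, and *ERO1* is the highest, at rank 581. In Δ*gcn4* and Δ*gcn2* the 4 genes that rose in WT lie at ranks 76 to 466.

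Whether *IRE1* was needed for the response was asked by setting Δ*ire1* against WT. The log2 ratio was lower for 5 of the 7 genes and higher for none, with 11.3% of all elements called lower and 10.9% called higher. Among these genes, *MPD2* was not called in WT and fell in Δ*ire1*, so its difference is not a rise that was lost. The difference in log2 ratio was −2.08 for *EUG1* (adjusted p = 2.92e-06 by limma), −2.06 for *MPD1* (adjusted p = 7.99e-07), and −1.37 for *PDI1* (adjusted p = 0.000559), beside the −1.59 of *ERO1*. For *MPD2* it was −0.52 (adjusted p = 0.0263), and this call was lost without any of 4 of the 6 arrays involved, WT 2 or 3 or Δ*ire1* 1 or 2 (adjusted p = 0.0714 to 0.105), and when the 2 strains were fitted alone (adjusted p = 0.0602). The difference for *ERV2* was −0.46 (95% interval −1.01 to 0.10), and for *EPS1* it was −0.25 (95% interval −0.57 to 0.059). The groups did not overlap for *ERV2* and overlapped for *EPS1*. Overlap between groups of 3 arrays was not counted over all elements, so it adds nothing to these tests. No member was higher in Δ*ire1* than in WT at an unadjusted p under 0.05 in limma.

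**Figure D3:**
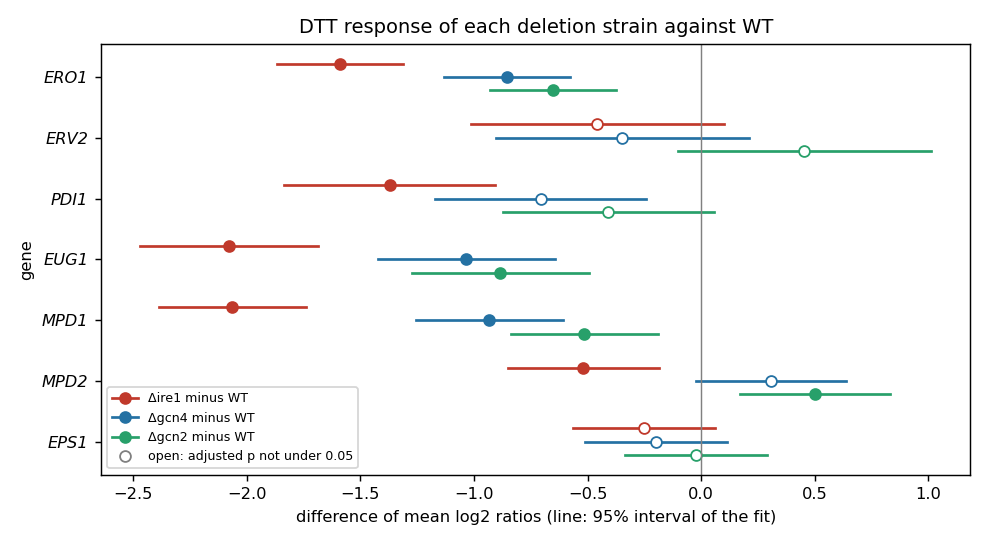
The difference in mean log2 ratio between each deletion strain and WT is shown for the 7 genes with its 95% interval from the linear model, and filled points passed the adjusted threshold. *EUG1*, *MPD1*, and *ERO1* pass the threshold below 0 in all 3 strains. *PDI1* and *EPS1* are also below 0 in all 3, where *PDI1* passes in Δ*ire1* only and *EPS1* in none. *MPD2* passes below 0 in Δ*ire1* and above 0 in Δ*gcn2*. All 3 differences share the WT arrays.

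Whether *GCN4* and *GCN2* were needed was asked in the same way, with the same 3 WT arrays in each comparison. In Δ*gcn4* the response was smaller for 3 of the 7 genes and larger for none, where 1.94% of all elements were called lower and 0.863% higher. The difference was −1.03 for *EUG1* (adjusted p = 0.00397 by limma) and −0.93 for *MPD1* (adjusted p = 0.00219), beside the −0.85 of *ERO1*. For *PDI1* it was −0.71 (95% interval −1.17 to −0.24, adjusted p = 0.109), and with array weights it passed (adjusted p = 0.0441). For *MPD2* it was 0.31 (adjusted p = 0.354). For *ERV2* it was −0.35 and became 0.068 without Δ*gcn4* array 1. No member was larger in Δ*gcn4* than in WT at an unadjusted p under 0.05 in limma.

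In Δ*gcn2* the response was smaller than in WT for 3 genes and larger for 1, with 6.24% of all elements called lower and 10.9% higher. The difference was −0.88 for *EUG1* (adjusted p = 0.00598 by limma) and −0.51 for *MPD1* (adjusted p = 0.0315), beside the −0.65 of *ERO1*. The call for *MPD1* was lost without any 1 of the 6 arrays (adjusted p = 0.0641 to 0.118). *MPD2* was higher by 0.50 in Δ*gcn2* (adjusted p = 0.0389), and this was lost when the arrays were centered (adjusted p = 0.0515), when they were also scaled (adjusted p = 0.122), and without WT array 1 or 2 or Δ*gcn2* array 2 or 3 (adjusted p = 0.0702 to 0.17). Equally numbered arrays of these strains deviated together. With the number as a block in the fit of all 12 arrays, the calls were the same 4, and those of *MPD1* and *MPD2* had an adjusted p of 0.0200 and 0.0212. For *PDI1*, with a difference of −0.41, the adjusted p was 0.21 without the block, 0.142 with it, and 0.0775 when WT and Δ*gcn2* were fitted alone with no block. For *ERV2*, with a difference of 0.45, it was 0.246, 0.188, and 0.0208. A fit of these strains alone with the block was added after the data were seen and rests on a number for WT array 1 given by elimination. In it 30.5% of all elements were called higher and 19.8% lower, and of the 7 genes all but *EPS1* were called, with *PDI1* now lower (adjusted p = 0.000386) and *ERV2* now higher (adjusted p = 6.84e-05). That fit gave all 7 genes one standard error, 0.10, so these p values do not rest on the spread of each gene.

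Δ*gcn4* and Δ*gcn2* were then set against each other. None of the 7 genes passed the test in limma, and 2 had an unadjusted p under 0.05, with 1.88% of all elements called higher and 4.45% called lower in Δ*gcn4*. These were *MPD1*, lower by 0.42 in Δ*gcn4* (adjusted p = 0.11), and *ERV2*, lower by 0.80 (adjusted p = 0.0791). Both passed with array weights (adjusted p = 0.0414 and 0.0434), and *ERV2* passed with the replicate number as a block (adjusted p = 0.0497). Without Δ*gcn4* array 1 the difference of *ERV2* was −0.39 (adjusted p = 0.246). The difference for *ERO1* was −0.20 (95% interval −0.48 to 0.075) and for *EUG1* it was −0.15 (95% interval −0.54 to 0.24).

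Δ*ire1* was also below the other deletion strains. Against Δ*gcn4*, 5 genes were lower and none higher, with 12.8% of all elements called lower and 13.2% higher. The differences were −1.13 for *MPD1*, −1.04 for *EUG1*, −0.82 for *MPD2*, and −0.73 for *ERO1* (adjusted p at most 0.00161 by limma). For *PDI1* the difference was −0.66 with overlapping arrays (adjusted p = 0.0355), and this call was lost without Δ*ire1* array 1 or 2 or Δ*gcn4* array 2 or 3 (adjusted p = 0.0818 to 0.174). Against Δ*gcn2*, 6 genes were lower and none higher, with 21% of all elements called lower and 15.8% higher. The differences were −1.55 for *MPD1*, −1.19 for *EUG1*, −1.02 for *MPD2*, −0.96 for *PDI1*, −0.94 for *ERO1*, and −0.91 for *ERV2*, the last with an adjusted p of 0.0135 that rose to 0.0515 and 0.0551 without Δ*ire1* array 1 or 2. No member was higher in Δ*ire1* than in Δ*gcn4* or Δ*gcn2* at an unadjusted p under 0.05 in limma.

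Whether the difference between the log2 ratios of 2 genes changed between strains was tested on that difference on each array, in which a shift of a whole array cancels. Of the 21 pairs, 13 differed between the 4 strains in an exact permutation test of the F statistic over all 15400 ways to split the 12 arrays, after adjustment over the 21. In most of the 13, 1 gene rose in WT and the other did not. The difference of such a pair shrinks where the rise is lost, so its call restates results of the single genes. *MPD1* and *ERO1* were nearly equal in WT (a difference of −0.021 ± 0.090, SD, n = 3), and the difference was −0.50 ± 0.17 for Δ*ire1*, −0.10 ± 0.10 for Δ*gcn4*, and 0.12 ± 0.048 for Δ*gcn2* (exact permutation p = 0.0011, adjusted 0.00464). The Δ*ire1* arrays, where *ERO1* was called higher, were the farthest from 0. *MPD2* and *EPS1*, both near 0 in WT, differed by 0.014 ± 0.087 there. The difference was −0.25 ± 0.21 for Δ*ire1*, 0.52 ± 0.12 for Δ*gcn4*, and 0.54 ± 0.044 for Δ*gcn2* (SD, n = 3; adjusted exact permutation p = 0.00591). Among the 4 genes that rose in WT, *PDI1* and *ERO1* (adjusted p = 0.687), *EUG1* and *MPD1* (adjusted p = 0.61), *PDI1* and *EUG1* (adjusted p = 0.415), and *EUG1* and *ERO1* (adjusted p = 0.415) missed the threshold in this exact permutation test. *PDI1* and *MPD1* passed it (adjusted p = 0.0283), with a difference of −0.71 ± 0.22 on the WT arrays and −0.013 ± 0.25 on the Δ*ire1* arrays (SD, n = 3). *MPD1* rose more than *PDI1* in WT, and neither rose in Δ*ire1*. The difference shrinks where both rises are lost, so this call too restates results of the single genes. A pair that misses the threshold is not thereby shown to respond alike: the difference between *PDI1* and *EUG1* had an SD of up to 0.73 in a strain.

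Over the 12 arrays, which fall into 4 strains and share those strains' differences, the genes that rose in WT ran closest together. Given as a description, the Pearson correlation was 0.977 for *MPD1* and *ERO1*, 0.935 for *PDI1* and *MPD1*, 0.933 for *EUG1* and *ERO1*, and 0.117 for *EPS1* and *ERV2*. The elements most like each gene were found by the same measure over the 12 arrays. For *ERO1* they were *LCL1* (0.950), *PMT2*, a mannosyltransferase of the ER (0.947), and *YIL171W* (0.947). For *PDI1* they were *OSH2* (0.950), *LCL1* (0.927), and *SEC31*, a coat subunit of transport vehicles leaving the ER (0.927). *EUG1* ran closest to *AMD1* (0.956), *SIL1*, an exchange factor of the ER chaperone Kar2p (0.952), and *SFB2* (0.948), a relative of another subunit of that coat. *MPD1* ran closest to an element with no gene name (0.968), *SEC16*, which organizes the sites where the coat forms (0.966), and *SFB2* (0.950). For *SFB2* the root mean square difference from *MPD1* was 0.25 and from *EUG1* 0.29, so that its values were near theirs as well as parallel to them. *MPD2* ran closest to *PAU16* (0.976), *ATG18* (0.971), and *RAM2* (0.969), *EPS1* to *SCL1* (0.924), *TYR1* (0.841), and *DAN4* (0.821), and *ERV2* to *SCD6* (0.949), *VAC7* (0.933), and *YPR127W* (0.931). *RAM2* was within a root mean square difference of 0.14 of *MPD2*. These choices depend on the measure: by Spearman rank correlation, most of the elements named were not among the closest 3. None of those named for *EUG1*, *MPD1*, and *ERV2* were, and *VAC7* had a rank correlation of 0.790 with *ERV2*.

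The genes that surround disulfide formation were then described by 5 lists, all of whose genes were measured. Of 10 folding partners in the ER, 7 rose and 3 fell in WT (median 0.81), beside 18.4% and 39.0% of all elements, and with centering 7 rose and 1 fell. For this and the other lists, the centered counts in WT stand beside 1661 of all 6024 elements called higher and 1708 lower. The response of 7 of the 10 folding partners was smaller without *IRE1*, beside 11.3% of all elements. *SIL1* had the largest mean, 2.89 ± 0.078 for WT and 0.23 ± 0.31 for Δ*ire1* (SD, n = 3), and *LHS1*, a chaperone related to Hsp70, had 2.63 ± 0.36 and 0.092 ± 0.58. Each was above *ERO1*, *MPD1*, and *EUG1* in WT. *ROT1* fell by 0.48 and *CNE1*, the yeast calnexin, by 0.29 in WT (adjusted p = 0.000982 and 0.018 by limma), and the call for *CNE1* was lost when the arrays were centered. Against WT, Δ*gcn4* had 3 of the 10 lower, beside 1.94% of all elements, or 1 when the arrays were centered and scaled, and Δ*gcn2* had 3 lower and 1 higher, beside 6.24% and 10.9%.

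Of 6 partners with a thioredoxin fold or a role in glycan trimming, 1 rose and 2 fell in WT, shares close to those of all elements, and with centering 2 rose and 2 fell. *ROT2*, a glucosidase II subunit, rose by 0.29, a call that was lost without WT array 3. *CWH41*, glucosidase I, averaged −1.76 ± 0.24 over the WT arrays and 0.22 ± 0.17 over the Δ*ire1* arrays (SD, n = 3), a difference of 1.98 (adjusted p = 0.000127 by limma), in the direction opposite to that of *ERO1*. *MNL1*, a mannosidase-like protein of ER-associated degradation that acts with Pdi1p, fell by 0.98 in WT (adjusted p = 2.66e-07) and by 0.56 in Δ*ire1*.

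The oxidases need flavin adenine dinucleotide (FAD). Of 12 genes of its supply and use at the ER, 4 rose and 3 fell in WT, beside 18.4% higher and 39.0% lower among all elements. With centering 6 rose and 2 fell, beside 1661 higher and 1708 lower of all 6024 elements. *RIB1*, the entry enzyme of riboflavin synthesis, averaged 0.90 ± 0.22 over the WT arrays and 0.17 ± 0.12 over the Δ*ire1* arrays (SD, n = 3; adjusted p of the difference = 0.00231 by limma). *FLC2*, named for flavin transport into the ER, was at 0.69 ± 0.24 and 0.84 ± 0.051, so that it rose in WT, and its difference between the strains did not pass (adjusted p = 0.581). *RIB5* and *RIB7*, later enzymes of the same synthesis, fell in WT by 0.69 and 0.43. Of the 12, 1 (*RIB1*) had a smaller value in Δ*ire1* than WT and 1 (*RIB5*) a larger one, beside 11.3% and 10.9% of all elements.

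Mitochondria have a disulfide relay of their own, with the oxidase Erv1p, a paralog of Erv2p. *ERV1* averaged −0.55 ± 0.11 over the WT arrays and −0.022 ± 0.13 over the Δ*ire1* arrays (SD, n = 3). It fell in WT (adjusted p = 0.000311 by limma), where *ERV2* was at 0.019, and its value for Δ*ire1* exceeded that for WT by 0.53 (adjusted p = 0.0178), a call that was lost without WT array 3 or Δ*ire1* array 1 (adjusted p = 0.0621 and 0.0524). Of the 3 genes of that relay, 2 fell in WT, beside 39.0% of all elements. The second, *HOT13* (−0.35), lost its call on centering. In Δ*ire1*, 2 of the 3 were higher than in WT, beside 10.9% of all elements. Of 12 genes of glutathione and thioredoxin reduction, 1 rose and 6 fell in WT, beside 18.4% and 39.0% of all elements, and 3 rose and 4 fell when the arrays were centered. *GRX7*, a glutaredoxin of the secretory pathway, rose by 0.30 (adjusted p = 0.00849, or 0.0867 without WT array 3), whereas the thioredoxins *TRX1* and *TRX3* fell by 0.91 and 0.49 and *GLR1*, the glutathione reductase, by 0.33, the last a call that was lost on centering. In Δ*ire1* against WT, 4 of the 12 were higher, beside 10.9% of all elements.

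**Figure D4:**
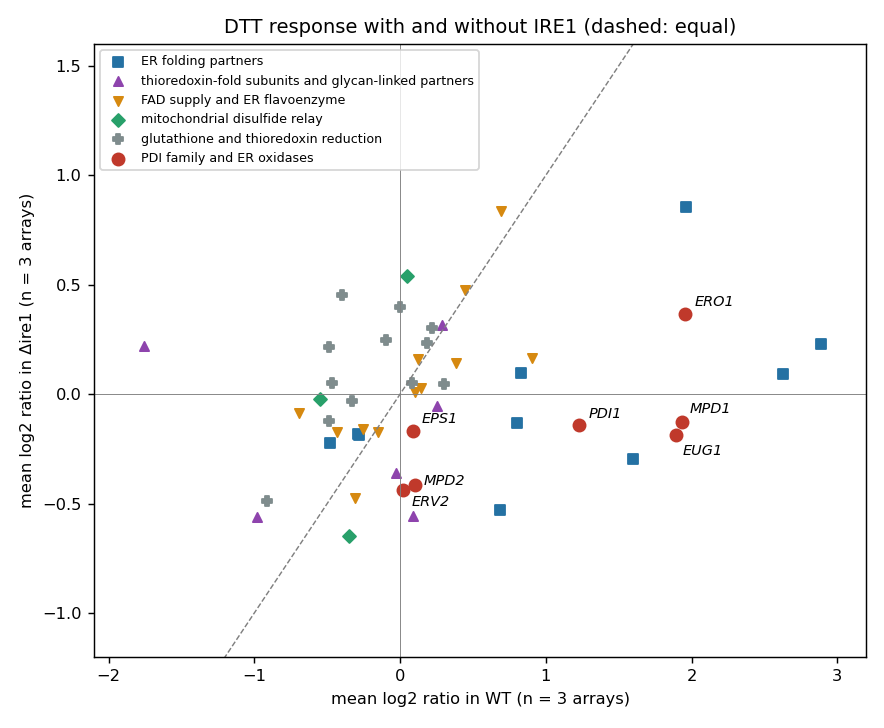
Each point is 1 gene, with its mean log2 ratio in WT (3 arrays) on the horizontal axis and in Δ*ire1* (3 arrays) on the vertical axis, and the dashed line marks equal values. *ERO1*, *PDI1*, *EUG1*, and *MPD1* lie far to the right of the line with most of the ER folding partners, whereas *CWH41* (−1.76 and 0.22) lies far to its left.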

How the data were processed

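RNA of 4 strains was compared before and after 30 min of DTT on 3 two-color spotted arrays per strain. The authors deposited log2 ratios of treated over untreated cells, with 6024 elements, 12 arrays, and no missing value; normalization within the arrays and dye swaps are not given in the sources used here. The table used holds no signal of single channels, so background was not examined, and precision is limited by how many arrays there are. Groups came from the sample labels, and WT replicate 1 carries no number and was numbered by elimination.

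Symbols came from the platform annotation: 5432 elements had 1 symbol, 592 had none listed there, and 5427 were matched to the RefSeq gene table. Sequences of *ERO1* were taken from the study's supplement.

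A mean per strain was fitted with limma 3.58.1 (R 4.3.3) to all 12 arrays, with moderated variances (15.5 degrees of freedom), Benjamini-Hochberg adjustment over the whole table, and a threshold of 0.05. Strains were tested against no change and against each other in 10 comparisons. Differences between 2 members were tested by exact permutation (Python 3.11.15). Where nothing else is said, p measures only the spread between these arrays. On simulated arrays of 6024 elements the fit was tested on known changes. The simulated noise was independent between arrays, so this does not cover arrays of WT and Δ*gcn2* that deviate together.

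All 7 members are named. Of each list, the 2 largest and 2 smallest means in WT among called genes are named, with *ERV1*, and for each member the 3 elements most correlated with it. The members and lists were chosen with earlier results of these data known.

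Equally numbered arrays of WT and Δ*gcn2* deviated together from their strain means (correlations of 0.574 to 0.661 over elements, against at most −0.198 for other numbers), so their numbers count as pairing them. The main fit and the permutation test have no block, and the block is an alternative. No other pair of strains was above 0.1 throughout. Alternatives were centering, centering and scaling, array weights, the replicate number as a block, robust moderation, a test against a fold of 1.2, only the strains compared, and leaving out each array. A genome, proteins, and promoters other than the *ERO1* fragments were not used here.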

Additional observations from a re-analysis of the deposited data

Results flagged for a closer look

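The response of a gene to DTT differed between strains, by limma's test of the difference itself (adjusted p under 0.05), in 23 cases. Against WT, the difference in log2 ratio in Δ*ire1* was −1.37 for *PDI1*, −2.08 for *EUG1*, −2.06 for *MPD1*, −0.52 for *MPD2*, and −1.59 for *ERO1*. In Δ*gcn4* it was −1.03 for *EUG1*, −0.93 for *MPD1*, and −0.85 for *ERO1*. In Δ*gcn2* it was −0.88 for *EUG1*, −0.51 for *MPD1*, −0.65 for *ERO1*, and 0.50 for *MPD2*. These comparisons share the WT arrays. Between Δ*ire1* and Δ*gcn4* the difference was −0.66 for *PDI1*, −1.04 for *EUG1*, −1.13 for *MPD1*, −0.82 for *MPD2*, and −0.73 for *ERO1*. Between Δ*ire1* and Δ*gcn2* it was −0.96 for *PDI1*, −1.19 for *EUG1*, −1.55 for *MPD1*, −1.02 for *MPD2*, −0.94 for *ERO1*, and −0.91 for *ERV2*. As given above, some of these calls were lost when single arrays were left out. They were those of *MPD2* in Δ*ire1* against WT and of *MPD1* and *MPD2* in Δ*gcn2* against WT. The calls of *PDI1* between Δ*ire1* and Δ*gcn4* and of *ERV2* between Δ*ire1* and Δ*gcn2* were lost in this way too. Single strains have 3 arrays, too few for a test of outlying arrays.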

How the results depend on the processing

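Results of the 7 genes over the 10 comparisons were repeated under each setting. With one array left out, 295 kept direction and side of the threshold, 25 lost the call, 4 gained one, and 12, none of them called, changed sign. Under the other settings the numbers were 460, 18, 10, and 9. Counts of genes in a group of 7 with few calls move easily. In Δ*ire1*, 1 gene fell as reported, 0 with centering, 2 with array weights, with the replicate number as a block, or with the strain fitted alone, 0 in the test against a fold of 1.2, and 0 to 3 with 1 array left out. The 1 gene that rose there became 0 in the test against 1.2. In Δ*gcn4*, 5 rose as reported and 3 in that test, and 0 to 1 fell with 1 array left out. For Δ*gcn2* against WT, 1 was higher as reported, 0 with centering, 0 with scaling, 0 in the test against 1.2, 2 with those strains alone, 2 with the replicate block added after the data were seen, and 0 to 1 with 1 array left out, and the 3 lower became 0 in the test against 1.2. For Δ*gcn4* against Δ*gcn2*, 0 were lower as reported, 2 with array weights, and 1 with the replicate block.

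These means and differences, none past the threshold in the main setting, turned in sign. In Δ*ire1*, *PDI1* became 0.0028 with centering and 0.030 with scaling, and *MPD1* 0.015 and 0.034. In Δ*gcn4*, *EPS1* became 0.05 with centering and 0.050 with scaling. For Δ*gcn4* against Δ*gcn2* with scaling, *EUG1* became 0.12 and *ERO1* 0.12, and for Δ*ire1* against Δ*gcn4* with array weights *EPS1* became 0.024. With 1 array left out, the mean ranged in WT from −0.004 to 0.22 for *MPD2* and −0.004 to 0.039 for *ERV2*, in Δ*ire1* from −0.44 to 0.10 for *PDI1* and −0.28 to 0.019 for *MPD1*, and in Δ*gcn4* from −0.59 to 0.087 for *ERV2*. The difference ranged from −0.068 to 0.19 for *ROT2* (Δ*ire1* against WT), −0.61 to 0.068 for *ERV2* (Δ*gcn4* against WT), and −0.13 to 0.080 for *EPS1* (Δ*gcn2* against WT). For Δ*ire1* against Δ*gcn4* it ranged from −0.12 to 0.045 for *EPS1* and −0.52 to 0.15 for *ERV2*. The cause was not tested. The 13 pairs of members called ranged from 9 to 15 over all settings run.

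Over all elements, the test against a fold of 1.2 gave the fewest calls for each strain, 501 higher and 1306 lower in WT (1108 and 2352 as reported), 245 and 934 in Δ*ire1* (733 and 2145), 408 and 1202 in Δ*gcn4* (949 and 2329), and 850 and 1373 in Δ*gcn2* (1520 and 2280). Centering gave 1661 higher in WT, 1321 in Δ*ire1*, and 1540 in Δ*gcn4*, more than as reported. Calls for Δ*gcn4* against WT ranged from 1 to 141 higher and 59 to 166 lower (52 and 117), and for Δ*gcn2* against WT from 80 to 1839 higher and 54 to 1192 lower (657 and 376), the highest being the replicate block of these strains. The ranges were 2 to 240 and 4 to 541 for Δ*gcn4* against Δ*gcn2* (113 and 268), 138 to 789 and 233 to 783 for Δ*ire1* against WT (658 and 678), 204 to 1120 and 255 to 1067 for Δ*ire1* against Δ*gcn4* (797 and 772), and 290 to 1251 and 560 to 1522 for Δ*ire1* against Δ*gcn2* (952 and 1266).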
